A study of Arabidopsis thaliana with 4 samples.

Results

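Transcripts of 4 chitin-directed defence genes and of the osmotin gene were followed in Arabidopsis rosette leaves that carried whitefly nymphs. The genes were CHI (AT2G43570, probe set 260568_at), EP3 (AT3G54420, 251895_at), CHIB (AT3G12500, 256243_at), PR4 (AT3G04720, 258791_at) and OSM34 (AT4G11650, 254889_at). A probe set is a group of short probes whose brightness gives 1 signal for a gene. These 5 probe sets were fixed by their identifiers, out of 22746 that are not controls, with earlier results of these data known. The plants were Arabidopsis thaliana ecotype Columbia, 21 days old at the start, kept under 8 h of light per day, and each infested plant received 100 adult silverleaf whiteflies (Bemisia tabaci type B) inside a nylon bag. The adults were removed after 7 days and leaves were taken 28 days after infestation began, from plants then 7 weeks old, when nymphs of the middle instars were present. The uninfested group consisted of leaves at a matching stage of development from caged plants of the same age without insects. RNA was hybridized to 4 Affymetrix ATH1 arrays, 2 per group, and each array carried RNA of 20 plants pooled over 2 replicate experiments. The groups therefore compare whole leaves after the adults were removed, and say nothing of single plants or single cell types.

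Chitin is a polymer of N-acetylglucosamine found in fungal cell walls and in the cuticle of insects, and plants make none of their own. Plant chitinases cut it, and many of them accumulate as pathogenesis-related proteins in the vacuole or outside the cell when a leaf is attacked. CHI and EP3 encode chitinases of the class IV type, EP3 being named after a secreted carrot chitinase. CHIB encodes the basic class I chitinase, and PR4 a hevein-like protein related to chitin-binding lectins; transcripts of both are widely used as readouts of ethylene and jasmonate responses. OSM34 encodes osmotin, a member of the thaumatin-like proteins, some of which damage fungal membranes.

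The signal is the MAS 5.0 value of the authors, a brightness on a linear scale that had been brought to a common trimmed mean on every array. The median signal per array ran from 185.2 to 205.2, and precision is limited by the number of arrays. As a mark of background, the brightest of 27 control probe sets for bacterial transcripts read 52.1. The array infested 2 stood apart: 26 tested probe sets were at least 8-fold above, and 8 at least 8-fold below, every other array, against 0 on each of the other arrays. The ratio of 3' to 5' signal, a sign of RNA integrity, also differed between the groups for most pairs of probe sets, in mixed directions. For 1 pair of actin probe sets it was 2.70 and 3.88 in uninfested leaves but 5.70 and 6.56 in infested leaves. For the other actin pair the groups overlapped (1.43 and 1.42 against 1.31 and 1.43). The ratio was lower on both infested arrays for 1 GAPDH pair and both ubiquitin pairs, and higher on both for the other GAPDH pair (1.09 and 0.980 against 1.14 and 1.17). The part of RNA integrity in the results below was not tested.

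All 5 genes were brighter on both infested arrays than on either uninfested array, a pattern shared by 29.3% of all probe sets. CHI and OSM34 rose in infested leaves by limma over all 13648 tested probe sets, of which 2.83% were called higher, and 2.54% lower, at an adjusted p under 0.05. EP3 and PR4 were tested and did not pass, and CHIB was too dim to be tested. With the replicate number in the sample titles taken as a block, 4 of the 4 tested genes were called higher, against 9.19% of tested probe sets. OSM34 and EP3 were tested only because their infested arrays were bright, so these counts do not speak for all 5 genes. The genes were also chosen with earlier results of these data known, so the shares given beside them are no test of the group. In bulk leaf RNA, more RNA per cell and more cells that hold the transcript cannot be told apart.

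CHI read 608.4 and 267.9 in uninfested leaves, and 5206 and 5972 in infested leaves. Both infested arrays were far above both uninfested arrays, and on log2(signal + 16) the uninfested arrays differed more from each other (SD 0.80) than the infested ones did (SD 0.14). The mean signal was 438.2 ± 240.8 (SD, n = 2) in uninfested and 5589 ± 541.7 (SD, n = 2) in infested leaves. On the scale of log2(signal + 16) the change was 3.73 ± 0.38 (SE), a 13.3-fold rise with a 95% interval from 6.96-fold to 25.3-fold and a limma adjusted p of 0.0289. It ranked 6 among the changes of the 13648 tested probe sets. Taking each infested array over each uninfested one, the smallest of the 4 ratios was 8.56 and the largest 22.3. The log2 change was 4.3 without uninfested 1, 3.16 without uninfested 2 and 3.63 without infested 2. The call was lost without either uninfested array, where the spread comes from the infested arrays alone. It was also lost with every probe set tested (limma adjusted p = 0.0692), a setting that called 0 probe sets of any kind.

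OSM34 read 15.1 and 63.3 in uninfested leaves, and 335.5 and 589.6 in infested leaves. The uninfested 1 value lay below the brightest bacterial control on that array (49.2), while uninfested 2 and both infested arrays lay above theirs. The mean went from 39.2 ± 34.1 (SD, n = 2) to 462.6 ± 179.7 (SD, n = 2). The log2 change was 3.22 ± 0.50 (SE), or 9.29-fold with a 95% interval from 3.92 to 22.0, and ranked 16 (limma adjusted p = 0.0378). Because its uninfested level was so near background, the size of the rise depends on the pseudocount: the log2 change was 3.79 with 1 and 2.35 with 64. It was 2.54 without uninfested 1, 3.89 without uninfested 2 and 2.82 without infested 2. The call was lost without either uninfested array, where the spread comes from the infested arrays alone. It was also lost when no filter was set (limma adjusted p = 0.0803), a setting that called 0 probe sets of any kind. OSM34 could only enter the test through its infested arrays, since its uninfested mean lay below the filter, which stood at a signal of 115.7.

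**Figure D1:**
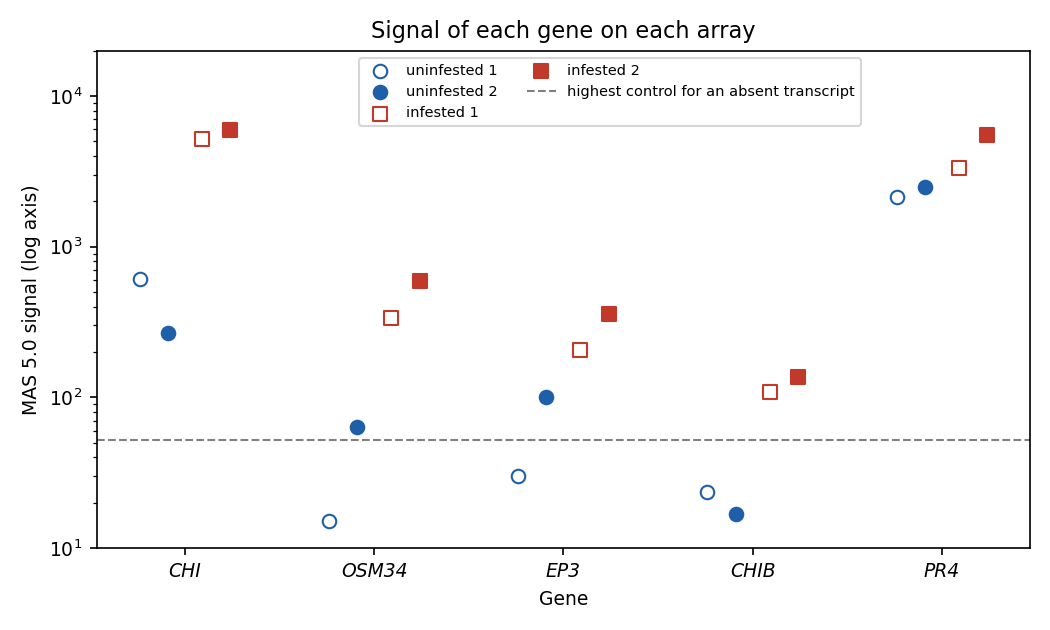
MAS 5.0 signal on a log axis for each gene on each of the 4 arrays; circles are uninfested and squares infested, open symbols arrays numbered 1 and filled symbols arrays numbered 2. The infested squares lie above the uninfested circles for all 5 genes, and CHIB on both uninfested arrays, and OSM34 and EP3 on uninfested 1, fall below the dashed line at 52.1, the brightest control for an absent transcript; heights of different genes are not comparable.

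EP3 read 30.2 and 100.1 in uninfested leaves, and 206.4 and 354.5 in infested leaves. The groups did not overlap, but uninfested 2 was 3.31 times as bright as uninfested 1, which was itself below its brightest bacterial control. The log2 change was 1.97 ± 0.49 (SE), 3.92-fold with a 95% interval from 1.68 to 9.12, and did not pass (limma adjusted p = 0.0773). With the replicate block it passed (adjusted p = 0.00255), where 9.19% of tested probe sets were called higher. Without infested 1 the log2 change was 2.34. Leaving out uninfested 1 brought the log2 change to 1.31, and leaving out uninfested 2 to 2.64. Like OSM34, EP3 entered the test through its infested arrays alone.

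CHIB read 23.4 and 16.7 in uninfested leaves, and 108.6 and 135.3 in infested leaves. Both uninfested values were below the brightest bacterial control of their arrays, and both infested values were above it. With those control values (49.2 and 48.8) in place of the uninfested signals, the ratio of means taken on log2 signals was 2.47. It is an average over the arrays and not a lower bound. The measured means were 20.0 ± 4.74 and 122.0 ± 18.9 (SD, n = 2 each). CHIB lay below the filter on mean signal and so had no test in the main analysis. When every probe set was tested its adjusted p by limma was 0.0733, a setting in which 0 probe sets of any kind were called and 2453 were higher at an unadjusted p under 0.05, or 10.8% of all probe sets.

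PR4 was well above background in every sample, at 2140 and 2493 in uninfested and at 3352 and 5547 in infested leaves. Infested 2 was 1.65 times as bright as infested 1, and infested 1 was 1.34 times as bright as uninfested 2, the nearest pair across the groups. The mean went from 2317 ± 249.6 to 4450 ± 1552 (SD, n = 2 each). The log2 change of 0.90 ± 0.27 (SE), 1.86-fold with a 95% interval from 1.18 to 2.94, did not pass (limma adjusted p = 0.106). It passed with the replicate block (adjusted p = 0.0120), where 9.19% of tested probe sets were called higher. The log2 change was 1.26 without infested 1 and 0.53 without infested 2.

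**Figure D2:**
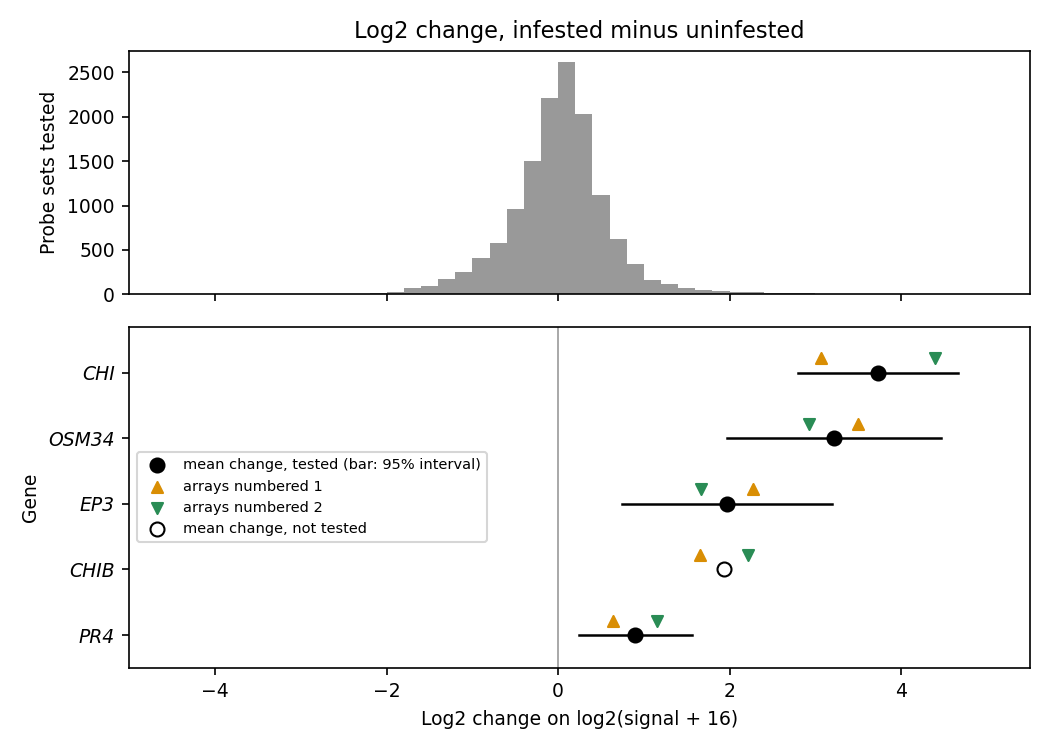
Upper panel, number of tested probe sets by log2 change (infested minus uninfested, log2(signal + 16)); lower panel, the change of each gene as a black point with its 95% interval, open for the untested CHIB, and the change within arrays numbered 1 and numbered 2 as triangles. The 5 changes run from 0.90 for PR4 to 3.73 for CHI, against a median of 0.04 over tested probe sets.

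In order of log2 change the genes stood as CHI (3.73), OSM34 (3.22), EP3 (1.97), CHIB (1.94) and PR4 (0.90). This order rests on the pseudocount of 16, since OSM34, EP3 and CHIB read below background on 1 or both uninfested arrays: with a pseudocount of 1, OSM34 (3.79) stood above CHI (3.78) and CHIB (2.56) above EP3 (2.27). The difference between the changes was computed within arrays for all 10 pairs of genes. CHI and OSM34 differed by 0.52, with an SD between the uninfested arrays of 1.76, and EP3 and CHIB by 0.04, with an SD of 1.13; in these 2 pairs the groups overlapped. The difference between CHI and PR4 was 2.84 (SD 0.96 between uninfested and 0.37 between infested arrays), with no overlap. The smallest two-sided p that an exact permutation test of 2 arrays against 2 allows is 0.333, which was the value for the 8 pairs without overlap (adjusted p = 0.416).

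The replicates of the 5 genes did not all move alike. For OSM34 and EP3 the difference within arrays had an SD of 0.01 between uninfested and 0.03 between infested arrays. Both of these genes read below background on uninfested 1. OSM34, EP3 and PR4 were dimmer on uninfested 1 than on uninfested 2, where uninfested 2 stood at 4.19, 3.31 and 1.16 times uninfested 1. CHI and CHIB ran the other way in uninfested leaves, at 0.440 and 0.714 times. All 5 genes were brighter on infested 2 than on infested 1, as were 41.6% of tested probe sets. Within arrays of the same number, the log2 change of CHI was 3.06 and 4.40, that of CHIB 1.66 and 2.21 and that of PR4 0.64 and 1.15, while those of OSM34 (3.50 and 2.93) and EP3 (2.27 and 1.67) were smaller in the arrays numbered 2.

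CHI opens a run of 6 chitinase genes that follow one another without a gap among protein-coding genes of the RefSeq annotation of TAIR10.1. The other 5, AT2G43580 to AT2G43620, each had a probe set, and 0 of them were bright enough to test. AT2G43580 and AT2G43600 stayed at or below the brightest bacterial control on every array. AT2G43590 read 88.2 and 105.5 in uninfested and 91.2 and 118.2 in infested leaves, which overlap, and AT2G43610 read 104.7 and 107.5 against 94.9 and 77.0. AT2G43620, at the far end of the run, read 65.1 and 51.8 against 215.6 and 146.5, a log2 change of 1.39 with no test; it was named after its values were seen.

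Across the rest of the chitinase family, which spans both protein families known to cut chitin in plants, 21 further loci were listed, and 14 of them could be matched to a probe set of their own. Of these, 3 were tested and 0 were called by limma, against 2.83% of all tested probe sets called higher. With the block 0 were called too, against 9.19%. At an unadjusted p under 0.05, 0 were higher without the block and 2 with it. Over all 13648 tested probe sets these numbers were 1931 and 2329. AT4G01700 had a log2 change of 0.63 (adjusted p = 0.183), AT1G02360 of 0.62 (adjusted p = 0.182) and AT3G47540 of 0.06 (adjusted p = 0.900), a median of 0.62 against 0.04 over all tested probe sets. Of the 11 too dim to test, 5 were brighter on both infested arrays, against 29.3% of all probe sets, 1 was dimmer on both and 5 overlapped, and 2 of those 5 brighter ones stayed at or below the bacterial controls throughout. ChiC (AT4G19810), a class V chitinase gene picked out after its values were seen, read 60.2 and 59.9 in uninfested and 135.0 and 115.3 in infested leaves.

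Osmotin's own family, the thaumatin-like proteins, had 19 of 23 further loci with a probe set of 1 gene, and 11 were tested. AT4G18250, which joins a thaumatin-like part to a receptor kinase, was the only one called higher, and 0 were called lower, against 2.83% and 2.54% of all tested probe sets. Its signal was 49.1 and 63.9 in uninfested leaves against 194.8 and 327.5 in infested leaves, a log2 change of 1.90 ± 0.30 (SE; limma adjusted p = 0.0385). Its uninfested 1 value lay just below the brightest bacterial control of that array, and it too entered the test through its infested arrays. Its call was lost without either uninfested array, where the spread comes from the infested arrays alone. With every probe set tested it was lost too, a setting that called 0 probe sets of any kind. The log2 changes of the 11 ran from -1.59 to 1.90 with a median of -0.18. The low end was AT4G38660, at 332.7 and 335.9 against 208.7 and 44.5 (adjusted p = 0.156), where infested 2 was far below infested 1. ATLP-1 (AT1G18250) had a log2 change of -1.02 (adjusted p = 0.121) and AT2G28790 of -0.54 (adjusted p = 0.191). With the block AT4G38660 and ATLP-1 were called lower (adjusted p = 0.0266 and 0.0384), against 10.3% of tested probe sets. Of 8 thaumatin-like genes too dim to test, 3 were brighter on both infested arrays, a share near the 29.3% of all probe sets, and 5 overlapped.

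**Figure D3:**
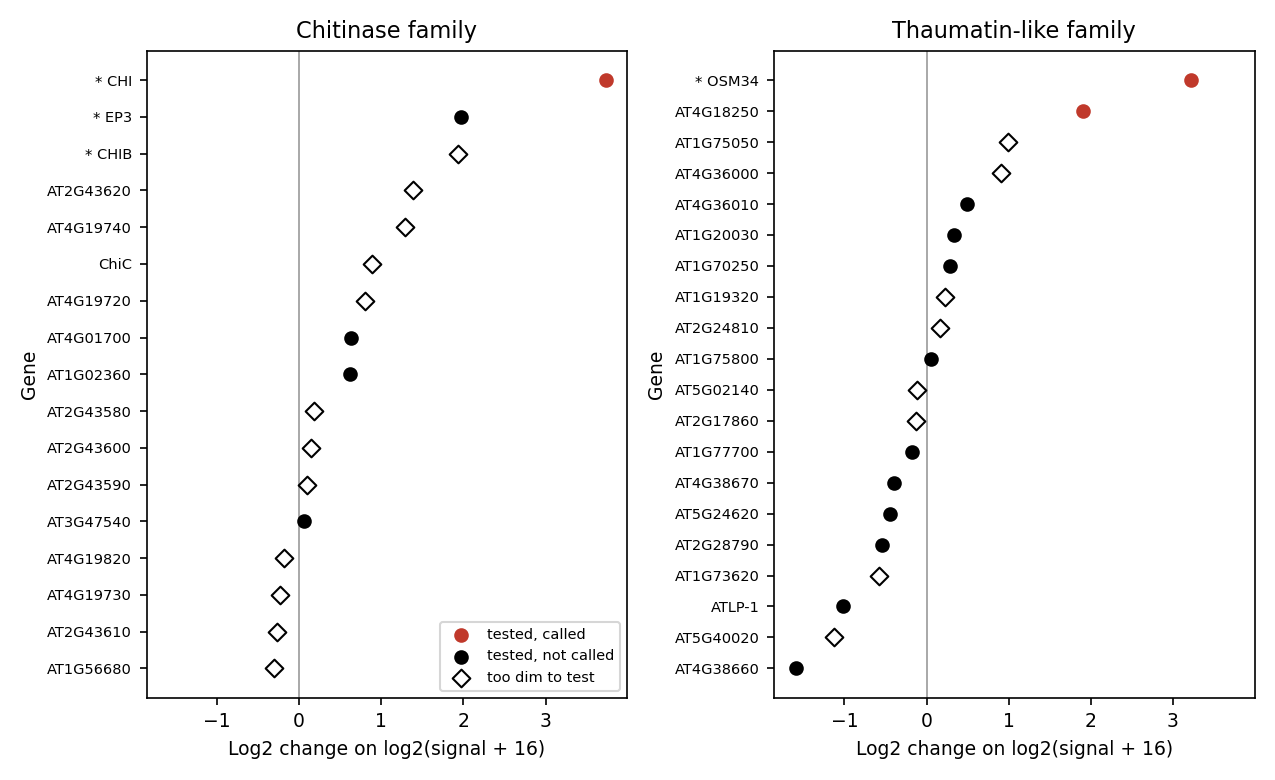
Log2 change (infested minus uninfested, log2(signal + 16)) of chitinase and thaumatin-like genes, ordered by value. Shown are CHI, EP3, CHIB and OSM34, and each other listed gene matched to a probe set of its own. These others are 14 of 21 chitinase loci and 19 of 23 thaumatin-like loci, and the rest are not shown. Asterisks mark the genes described above. Red points were called by limma, black points were tested and not called, and open diamonds were too dim to test. CHI (3.73) and OSM34 (3.22) had the largest changes among the genes shown in their panels.

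Other genes of ethylene and jasmonate responses were set beside CHIB and PR4. Of 8 such loci listed, 4 were matched to a probe set of their own, and 0 of the 3 tested were called, against 2.83% of tested probe sets called higher and 2.54% lower. The defensin genes PDF1.2 and PDF1.2b, near-identical copies that the probes may not separate, had log2 changes of -0.92 (limma adjusted p = 0.0589) and -0.93 (adjusted p = 0.0743), and with the block both were called lower (adjusted p = 0.00999 and 0.00845), as were 10.3% of tested probe sets, where PR4 was called higher. EIN3, an ethylene transcription factor gene, had 0.47 (adjusted p = 0.214), and THI2.1, a thionin gene, was too dim to test. Of 9 loci of chitin perception, PBL27 (AT5G18610), a kinase gene acting below the chitin receptor, had a probe set of 1 gene; it read from 1.7 to 6.4 on the 4 arrays, below the bacterial controls.

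Markers of leaf cell types were read on the same arrays. The mesophyll markers RCA, PRK, SBPASE, LHCB4.2 and LHCB4.3 (5 of 6 listed) summed to 71140 and 75560 in uninfested leaves against 53350 and 44370 in infested leaves. Of the 5, SBPASE and LHCB4.3 were called lower (limma adjusted p = 0.0411 and 0.0278), against 2.54% of all tested probe sets. The guard cell genes AT1G22690 and FMA (2 of 4 listed) summed to 2094 and 1995 against 1194 and 1018. AT1G22690 was called lower (adjusted p = 0.0411), against the same 2.54%, and FMA overlapped between the groups (adjusted p = 0.386). The senescence-linked regulators WRKY6 and WRKY53 (2 of 4 listed) summed to 523.2 and 762.0 against 1247 and 2524. WRKY6 was called higher (limma adjusted p = 0.046) and WRKY53 was not (adjusted p = 0.0919), against 2.83% of tested probe sets called higher. The uninfested values of WRKY6 (85.9 and 96.3) lay below the filter, so it entered the test only through its infested arrays. By value WRKY6 and WRKY53 were both higher in infested leaves, as were all 5 genes. The root gene EXPA7 (1 of 3 listed) read 45.1 and 63.9 against 61.4 and 82.0, with overlap. None of these read 0; 3 phloem and 2 flower markers were not analysed here. The part of cell makeup or leaf senescence in the changes of the 5 genes was not tested.

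Genes with the most similar profiles were found among 7336 tested probe sets with 1 gene, by the Euclidean distance between profiles of log2(signal + 16) over the 4 arrays, each taken about its own mean. Nearest to CHI were AT3G13610 (distance 0.51), the feruloyl-CoA hydroxylase gene of scopoletin synthesis, AT2G44240 (0.69) and AT1G26390 (0.99), a berberine bridge enzyme-like oxidase gene, against a median of 3.80 over all tested probe sets. AT3G13610 read 64.2 and 9.0 in uninfested leaves against 620.6 and 511.2 in infested leaves, with uninfested 1 above uninfested 2 as in CHI. Its uninfested 2 value lay below the brightest bacterial control of that array (48.8), unlike that of CHI. Both its uninfested values lay below the filter, so it was tested only through its infested arrays. Nearest to OSM34 were AT1G68620 (0.43), AT3G18250 (0.60) and AT1G26380 (0.63), another berberine bridge enzyme-like gene, against a median of 3.38.

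For EP3 the nearest were AT1G65510 (0.46), AT3G28850 (0.48) and AT4G15680 (0.53), against a median of 2.23. AT4G15680, a glutaredoxin gene, rose from 209.0 and 344.6 to 914.8 and 1202 (log2 change 1.90, limma adjusted p = 0.0371). For PR4 they were AT4G00955 (0.05), ALDH7B4 (0.08), an aldehyde dehydrogenase gene, and AT2G27310 (0.09), against a median of 1.09. ALDH7B4 read 1725 and 1963 in uninfested and 2854 and 4449 in infested leaves, and it too missed the threshold (log2 change 0.95, adjusted p = 0.0829). Among the 4 tested genes themselves, EP3 and OSM34 were the closest pair (1.25) and CHI and PR4 the farthest apart (3.02). These distances describe 4 arrays and carry no test.

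**Figure D4:**
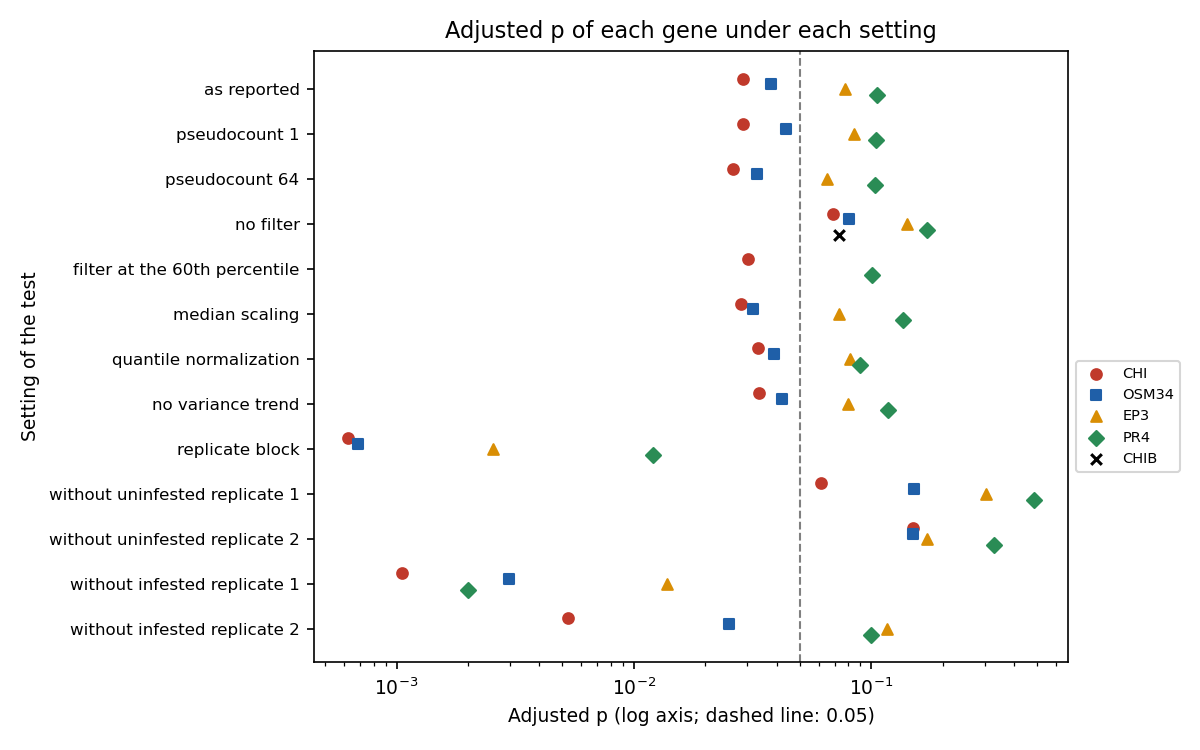
Adjusted p by limma (log axis, dashed line at 0.05) for each gene under the reported setting and each alternative; CHIB appears where it was tested. CHI and OSM34 lie right of the line with no filter (0.0692 and 0.0803) and without either uninfested array. EP3 and PR4 lie left of it with the replicate block (0.00255 and 0.0120), where 9.19% of tested probe sets were called higher. They also lie left of it without infested replicate 1, where the spread comes from the uninfested arrays alone and calls rose over all tested probe sets.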

How the data were processed

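Leaf RNA was hybridized in 1 colour to 4 ATH1 arrays (Affymetrix), whose groups come from the sample titles. The deposited values are signal intensity from MAS 5.0, which the authors ran with standard settings, per the labels and the series' design text; the version is not given in the sources used here. Detection calls and sequences were not used here. Of 22810 probe sets, 64 were controls and not tested. The test used log2(signal + 16) and only those 13648 probe sets that reached the 40th percentile of mean value. They were tested in R 4.3.3 by limma 3.58.1 (eBayes with a variance trend, 2 residual and 3.66 prior degrees of freedom; 1 and 7.26 with the block), two-sided, with Benjamini-Hochberg adjustment, called under 0.05; the code was tested on simulated data. The p-values set each change against the spread between arrays of pooled plants. Part of that spread is borrowed from all tested probe sets.

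CHI and OSM34 were named by the platform annotation, which does not list the other 3 members; their names are those of the list that defines the group, and could not be checked against it. Family genes came from hand-made lists of loci, matched through the annotation to RefSeq (TAIR10.1), with the brightest probe set per gene; the 4 tested genes of each list with the smallest p, and the 3 nearest profiles per member, were named. Members and lists were chosen with earlier results of these data known. Promoter motifs were planned and not run, as no sequence was used.

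Titles carry the numbers 1 and 2 in both groups. The design text speaks of paired pools, infested and control, from each experiment, and this is the basis for reading the number as a shared experiment. Across probe sets, arrays with the same number deviated together from their groups (correlation 0.264). Alternatives were the pseudocount, filter, scaling, variance trend, replicate block and leaving out each array.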

Additional observations from a re-analysis of the deposited data

How the results depend on the processing

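The call of 2 of the 5 genes as higher (CHI and OSM34) did not change with a pseudocount of 1 or 64, median scaling, quantile normalization or no variance trend. With every probe set tested the count was 0, as it was over all 22746 probe sets. All 5 were higher at an unadjusted p under 0.05, as were 2453 of all probe sets. The log2 change of CHI was then 3.73 (limma adjusted p = 0.0692) and that of OSM34 3.22 (0.0803). With a filter at the 60th percentile the count was 1, since OSM34 and EP3 were then too dim to test. With the replicate block it was 4, adding EP3 (1.97, adjusted p = 0.00255) and PR4 (0.90, 0.0120). Leaving out 1 array gave log2 changes from 3.16 to 4.3 for CHI, 2.54 to 3.89 for OSM34 and 1.31 to 2.64 for EP3. For CHIB they ran from 1.80 to 2.08 and for PR4 from 0.53 to 1.26. The calls of CHI and OSM34 were lost without either uninfested array. With 1 array in a group the spread comes from the other group alone, so such calls do not compare with those of all 4 arrays. The log2 change of CHIB was 2.56 with a pseudocount of 1 and 1.14 with 64. Of the other chitinase genes, 0 were called higher under every setting that kept all 4 arrays. The single thaumatin-like call was lost with no filter (0), with the 60th percentile (0, untested) and without either uninfested array (0 to 1 over the arrays left out). Chitin perception genes had 0 tested; with no filter PBL27 was tested and not called (unadjusted p = 0.776). Under these settings none of CHI, OSM34, EP3, CHIB and PR4 changed direction. Most of the settings could not change it, since both infested arrays lay above both uninfested arrays for each gene.

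Over all tested probe sets, 386 were called higher and 347 lower; median scaling gave 342 and 589, no variance trend 277 and 199, the block 1254 and 1403, no filter 0 and 0, leaving out either uninfested array 0 and 0, infested 1 2065 and 2487, and infested 2 638 and 690. A fit without 1 array takes its spread from the other group alone, and the cause of the changed calls was not tested. The signal over background limits CHIB, EP3 and OSM34 in uninfested leaves.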
